A study of Homo sapiens with 6 samples.

Results

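Beta-catenin, encoded by CTNNB1, and 5 genes of Wnt feedback and output (DKK1, ZNRF3, NKD1, TNFRSF19 and SOX4) were taken by name from the authors' deposited table of genes called as changed after H19 knockdown. All 6 were found among the 1998 genes of that table. The 5 besides CTNNB1 are called feedback genes below as a short name. Of these, only DKK1, ZNRF3 and NKD1 are described here as damping the pathway. RNA came from HepG2, a human liver cancer line with many hepatocyte functions, 48 h after transfection with an siRNA labelled siH19 (3 libraries) or a control siRNA labelled siCon (3 libraries). The labels name no other treatment, and both groups are the same line. H19 is an imprinted long noncoding RNA. Its own level was not analysed here, so siH19 is the submitters' label for a knockdown whose extent was not checked. The series compares the 2 groups to find genes that H19 regulates.

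In Wnt signalling, a secreted ligand binds a Frizzled receptor with its partner LRP5 or LRP6 and so halts the complex that marks beta-catenin for destruction. Stable beta-catenin enters the nucleus, pairs with TCF/LEF factors at DNA and switches on target genes, several of which encode inhibitors that damp the pathway again. HepG2 is known to carry a deletion in 1 copy of CTNNB1 that removes the region where beta-catenin is marked for destruction, so part of its beta-catenin escapes this control. In liver the pathway is known for setting the enzyme programme of hepatocytes near the central vein.

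RNA of the effector and of 4 of its 5 feedback genes was higher in siH19 than in siCon cells, and that of the secreted inhibitor DKK1 was lower. In the authors' deposited table SOX4 rose most, by 1.66-fold (log2 fold change 0.73 ± 0.12, SE), and CTNNB1, TNFRSF19, NKD1 and ZNRF3 rose by 1.21-fold to 1.29-fold. DKK1 fell by 0.58 ± 0.10 (SE) on the log2 scale in the authors' deposited table, which is 1.495-fold. The table holds only genes at an authors' adjusted p under 0.05, so 100% of its genes are called and being called says nothing about these 6. Of all listed genes 44.7% were higher and 55.3% lower in siH19, against 5 and 1 of the members. All 6 members also had an adjusted p under 0.01, as did 64.8% of listed genes. The median log2 fold change in the authors' deposited table was 0.34 over the members and -0.27 over all listed genes. The members were chosen with these results known, so the counts are a description and no test was made of them.

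The authors combined the libraries of a group, so each gene has 1 deposited level per group and no value per library. All levels here are taken as log2 normalized counts, and the error is the authors' standard error (SE) of the fold change over 3 libraries a group. Whether those 3 were separate cultures is not stated, so the authors' errors and adjusted p-values may cover technical spread alone. The depth of the libraries is unknown, as the table holds no totals. Mean normalized counts ran from 1595 for SOX4 to 9107 for CTNNB1, against a median of 639.8 over all listed genes.

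CTNNB1 is the effector of the pathway and also a structural protein of cell junctions. Its level in the authors' deposited table was 13.33 in siH19 and 12.96 in siCon (log2 normalized count), or 10297 against 7968 normalized counts. That rise of 0.37 ± 0.09 (SE) had an adjusted p of 0.000894 in the authors' deposited table. By mean count, which is not per length, CTNNB1 ranked 45 of 1998 listed genes, yet only 31.5% of them had a smaller change. The counts cover the gene as a whole, so RNA of the intact copy and of the shortened copy cannot be told apart.

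NKD1 binds Dishevelled, the protein that passes the signal on from Frizzled, and dampens it. In the authors' deposited table it stood at 13.05 in siH19 and 12.74 in siCon (log2 normalized count), a rise of 0.31 ± 0.07 (SE) at an adjusted p of 8e-05. ZNRF3 is a membrane ubiquitin ligase that clears Frizzled receptors from the cell surface. It stood at 10.96 in siH19 and 10.69 in siCon (log2 normalized count) in the authors' deposited table, a rise of 0.27 ± 0.08 (SE) at an adjusted p of 0.0073. These are the 2 smallest changes of the 6, and 7.41% of listed genes had a smaller one than ZNRF3.

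TNFRSF19, also called TROY, is a receptor of the tumour necrosis factor family and a known beta-catenin target. Its level in the authors' deposited table was 11.43 in siH19 and 11.06 in siCon (log2 normalized count), with a rise of 0.36 ± 0.09 (SE) and an adjusted p of 0.000393. SOX4 is an HMG-box transcription factor that can bind beta-catenin and TCF factors and is also a known target of TGF-beta. It stood at 10.96 in siH19 and 10.23 in siCon (log2 normalized count) in the authors' deposited table. That is 1992 normalized counts in siH19 against 1201 in siCon. Its adjusted p was written as 0 in the authors' deposited table, which means below the precision of the table, and its rise was 6.08 times its SE.

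DKK1 is secreted and blocks Wnt signalling by binding LRP5 and LRP6. Its level in the authors' deposited table was 10.66 in siH19 and 11.24 in siCon (log2 normalized count), or 1618 against 2419 normalized counts. The log2 fold change was -5.8 times its SE, with an adjusted p of 1e-06 in the authors' deposited table. It was the only member with a lower level in siH19 than in siCon.

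**Figure D1:**
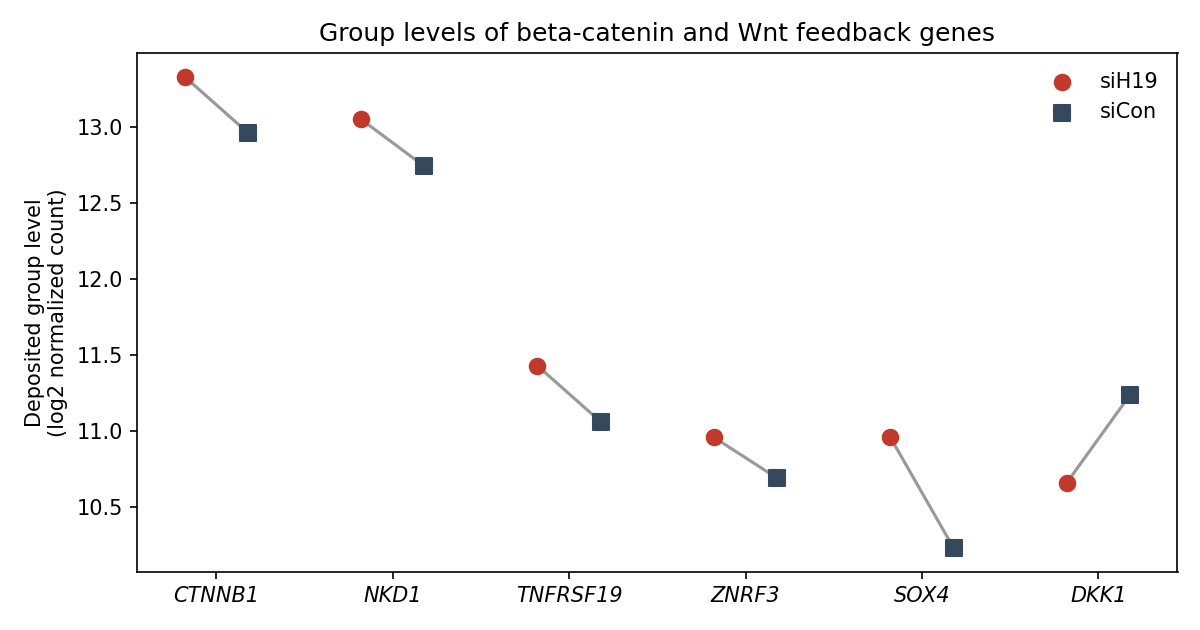
Deposited group level of each member (y axis, log2 normalized count) in siH19 (red circles, left) and siCon (dark squares, right), with no error bars because each group has 1 combined value. The line slopes down to siCon in 5 genes and up to siCon in DKK1, at 10.66 in siH19 and 11.24 in siCon.

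Levels can be compared between genes only per length. Divided by the length of all annotated exons joined (GENCODE release 29), the siH19 levels ran in the order CTNNB1 (863 normalized counts per kb), DKK1 (733), TNFRSF19 (540), NKD1 (487), SOX4 (340) and ZNRF3 (286). In siCon the order was DKK1 (1100 normalized counts per kb), CTNNB1 (668), TNFRSF19 (418), NKD1 (393), ZNRF3 (237) and SOX4 (205). DKK1 and CTNNB1 thus changed places between the groups, as did SOX4 and ZNRF3. The change of place of DKK1 depended on the length used: per kb of the longest coding transcript CTNNB1 led in both groups, with 2170 against 904 for DKK1 in siH19 and 1680 against 1350 in siCon. This second length was chosen after the values had been seen. With 1 value per group there is no spread over samples, so whether neighbours in these orders differ cannot be said.

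**Figure D2:**
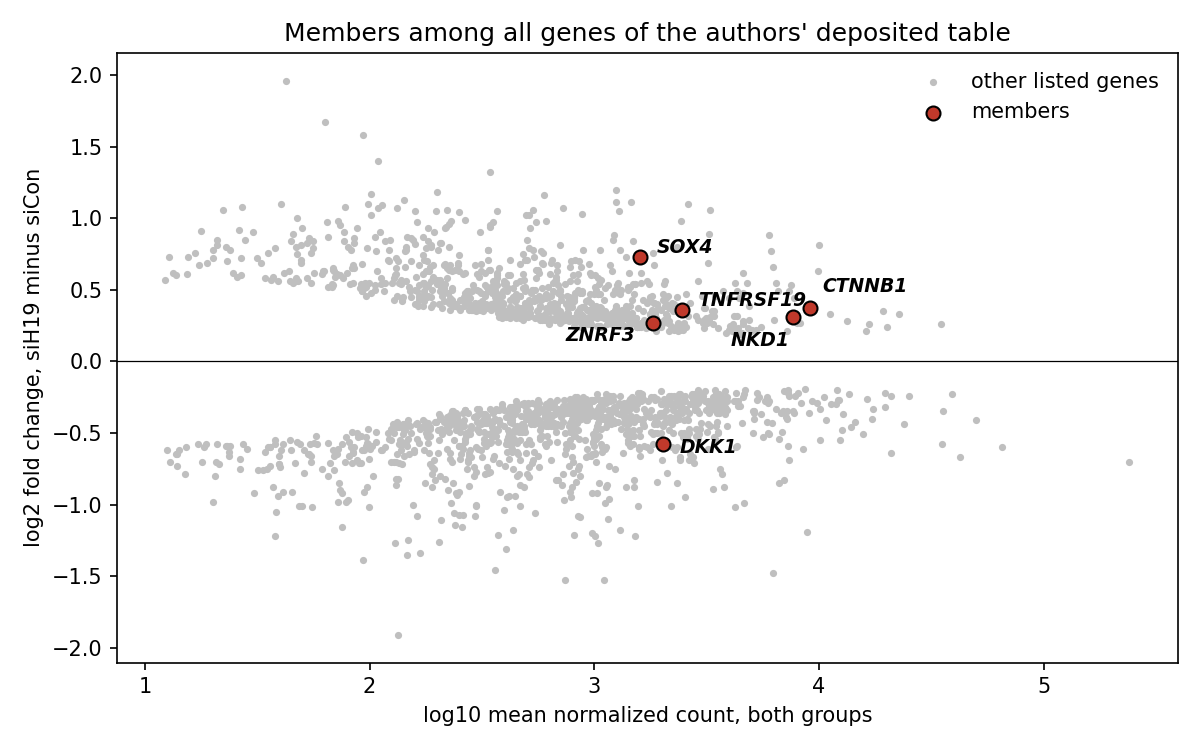
Log2 fold change, siH19 minus siCon (y axis), against log10 mean normalized count (x axis) for the 1998 listed genes (grey) with the 6 members in red. CTNNB1 and NKD1 lie at high mean counts with small rises, and SOX4 and DKK1 lie farther from 0 on either side at lower mean counts.

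Set against the RNA of the effector by point estimate, 3 feedback genes had close fold changes, SOX4 a larger one and DKK1 an opposite one. The amount and activity of beta-catenin protein were not measured in these data. The log2 fold change of TNFRSF19 was 0.01 below that of CTNNB1 (difference -0.01, 95% interval -0.26 to 0.24), that of NKD1 differed by -0.06 (-0.28 to 0.16) and that of ZNRF3 by -0.10 (-0.34 to 0.14). These intervals hold 0, and at their ends they allow differences of up to 0.34 on the log2 scale, nearly the size of the rise of CTNNB1. For SOX4, with the larger rise, the difference was 0.36 (95% interval 0.07 to 0.65). DKK1 went the other way, with a difference of -0.95 (95% interval -1.21 to -0.69). That this interval leaves out 0 follows from taking called genes of opposite direction. The intervals were computed from the SEs in the authors' deposited table, treat the 2 estimates as independent, and are not adjusted for the 15 pairs that 6 genes form. Widened for 15 pairs (Bonferroni, added after the values were seen), the interval was -0.08 to 0.80 for SOX4, which holds 0, and -1.34 to -0.56 for DKK1.

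Among all 15 pairs, 9 had an interval that left out 0. These were the 5 pairs with DKK1 and the 4 pairs of SOX4 with the other higher genes. A gene called as lower set against one called as higher gives an interval that leaves out 0. The outcome of the 5 pairs with DKK1 was thus fixed by the filter on called genes and adds no support. The log2 fold change of SOX4 exceeded that of TNFRSF19 by 0.37 (95% interval 0.08 to 0.66), that of NKD1 by 0.42 (0.15 to 0.69) and that of ZNRF3 by 0.46 (0.18 to 0.74). The other 6 pairs were those among CTNNB1, TNFRSF19, NKD1 and ZNRF3. No interval among those 4 left out 0. With the widened intervals 7 of 15 pairs left out 0, those with DKK1 and those of SOX4 with NKD1 and ZNRF3.

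**Figure D3:**
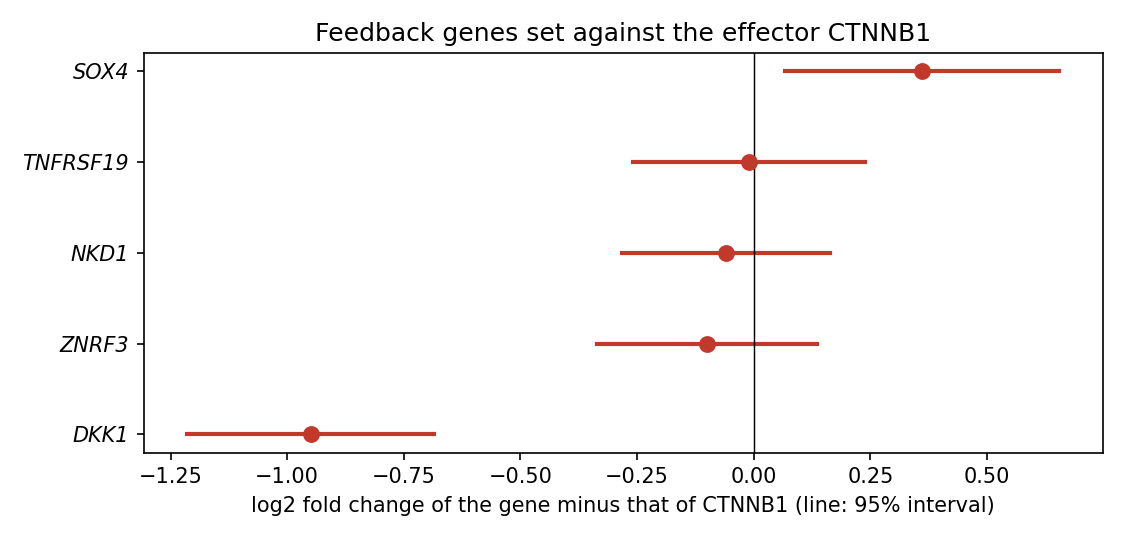
Log2 fold change of each feedback gene minus that of CTNNB1 (x axis), with dots for the difference and lines for its 95% interval from the deposited SEs. The lines of TNFRSF19, NKD1 and ZNRF3 cross 0, that of SOX4 lies above it (0.07 to 0.65) and that of DKK1 below it (-1.21 to -0.69).

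Of the 6 members 1, SOX4, changed by 1.5-fold or more in the authors' deposited table, against 28.2% of all listed genes (12.6% higher and 15.6% lower by that much). DKK1 lay just under that size at 1.495-fold lower.

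Promoter sequence was examined because TCF/LEF factors, through which beta-catenin acts, bind a short known motif. RefSeq promoter windows on GRCh38.p14, from 250 bases before to 50 after the start site, were matched for 4 of the 6 members, with 2 windows for TNFRSF19, and not for ZNRF3 and NKD1. The motif searched, on both strands, was CTTTG followed by AA, AT, TA or TT. DKK1 held 2 matches, CTTTGAA at -95 to -89 and then CTTTGTT at -76 to -70 relative to its start site, both on the gene's own strand. The windows of CTNNB1, SOX4 and TNFRSF19 held none of these letters. At least 1 match was found in 13.8% of all 35116 promoter windows and at least 2 in 1.58%. Among the 2346 windows of listed genes these shares were 10.7% and 0.639%. DKK1 is printed as the member that fell and the only one with matches, which are in capitals, with CTNNB1 as the effector and SOX4 as the largest rise for comparison. A match describes these letters and not a bound site, and its part in the response of DKK1 was not tested. All 3 windows lie on the plus strand, at chr10:52314031-52314330 for DKK1, chr3:41199255-41199554 for CTNNB1 and chr6:21593501-21593800 for SOX4.
DKK1: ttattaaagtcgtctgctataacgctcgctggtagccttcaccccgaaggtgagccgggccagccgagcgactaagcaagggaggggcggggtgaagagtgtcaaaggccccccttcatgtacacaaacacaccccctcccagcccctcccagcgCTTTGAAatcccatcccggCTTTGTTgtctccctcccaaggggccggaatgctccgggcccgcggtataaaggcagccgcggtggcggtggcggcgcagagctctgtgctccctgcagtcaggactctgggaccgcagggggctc
CTNNB1: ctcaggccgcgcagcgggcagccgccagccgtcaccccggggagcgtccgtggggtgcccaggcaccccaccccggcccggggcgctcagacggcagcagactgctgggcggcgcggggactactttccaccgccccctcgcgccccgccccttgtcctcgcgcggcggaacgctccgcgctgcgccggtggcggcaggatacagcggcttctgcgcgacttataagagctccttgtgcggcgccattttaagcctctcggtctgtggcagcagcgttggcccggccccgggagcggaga
SOX4: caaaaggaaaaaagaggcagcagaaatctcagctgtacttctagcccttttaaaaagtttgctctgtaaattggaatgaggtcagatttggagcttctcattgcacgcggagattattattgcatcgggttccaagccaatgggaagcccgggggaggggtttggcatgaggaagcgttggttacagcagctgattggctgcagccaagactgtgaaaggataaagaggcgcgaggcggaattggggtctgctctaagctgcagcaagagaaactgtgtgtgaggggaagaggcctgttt

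Over the whole table, direction went with a pair of 7-base sequences in the 3' untranslated region (UTR) that an earlier search of these same data had picked out for it, so the shares below describe that choice and support nothing further. In the longest annotated 3' UTR of 1881 listed genes, CATCAAA was held by 333, of which 71.8% were lower in siH19, against 50.9% of genes without it. For GCAGTAC, found in 180 genes, 16.7% of its holders were lower in siH19, against 58.6% of the other genes. DKK1, the member that fell, held no CATCAAA, and none of the 5 members that rose held GCAGTAC. The 1 match among the members was a CATCAAA in ZNRF3, at base 1881 of its 3' UTR, and ZNRF3 rose. It is printed with the match in capitals because it is the only such site among the 6 genes.
ZNRF3: acaaattccaaCATCAAAtgatcaaaaca

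The members lie on 6 chromosomes and are not neighbours. In GENCODE release 29 on GRCh38 all but TNFRSF19 overlap another annotated gene: CTNNB1 overlaps ULK4, DKK1 overlaps PRKG1-AS1, SOX4 overlaps an antisense transcript, and ZNRF3 and NKD1 overlap antisense and other noncoding transcripts. None of the overlapping genes was itself listed. The libraries keep strand, but whether strand was used in counting is not stated, so reads of such pairs may be shared.

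Other genes of the pathway were taken from 9 lists of 206 symbols, written with earlier results of these data known. Besides the 5 members that stand in these lists, 17 were listed, of which 11 were higher and 6 lower in siH19. Their median log2 fold change was 0.33. Of all listed genes 44.7% were higher and 55.3% lower, with a median of -0.27. At an adjusted p under 0.01 the split of these other pathway genes was 6 higher and 5 lower. No Wnt ligand, R-spondin or ligand release gene was among the listed genes (0 of 26 symbols), and 1 of 19 receptors was. That receptor was LGR4, which binds R-spondins and protects Frizzled from ZNRF3, at -0.20 ± 0.07 (SE) in the authors' deposited table. KREMEN1, a surface receptor that DKK1 uses to remove LRP6, rose by 0.35 ± 0.10 (SE) in the authors' deposited table, opposite to DKK1. Apart from NKD1, none of 33 symbols for Dishevelled regulators and the destruction complex was listed. TLE1, a corepressor that binds TCF factors, was the 1 listed nuclear partner of 28 symbols and rose by 0.33 ± 0.11 (SE) in the authors' deposited table. A gene outside the table may have changed without passing the authors' threshold, may not have changed, or may have been too low to test. Values for these unlisted genes were not analysed here. The share of all measured genes that is listed is unknown, so these counts of listed symbols are no result about the pathway.

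Beta-catenin's partners at cell junctions and related proteins were divided, with 2 higher and 2 lower of 4 listed. In the authors' deposited table JUP, or plakoglobin, the closest relative of beta-catenin, rose by 0.50 ± 0.11 (SE), and N-cadherin, CDH2, rose by 0.25 ± 0.09. Alpha-catenin, CTNNA1, which ties beta-catenin to actin, fell by 0.25 ± 0.08 (SE), and the related CTNNAL1 changed by -0.30 ± 0.08 in the authors' deposited table.

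Target genes outside the members stood in a general and a liver list, and the difference between the lists was not tested. Both lists were written with earlier results of these data known, so their counts are a description. All 6 further listed general Wnt targets were higher, out of 36 symbols, where 44.7% of all listed genes were higher and 55.3% lower, with a median log2 fold change of 0.49. In the authors' deposited table the largest rises belonged to the adhesion molecule L1CAM (0.95 ± 0.11, SE), the calcium-binding protein S100A4 (0.69 ± 0.21, at a low mean count of 49.3), the transcription factor JUN (0.53 ± 0.13) and BAMBI, a decoy receptor of TGF-beta signalling (0.45 ± 0.12). Many genes of this list also answer to other pathways. Of 18 symbols for liver targets of beta-catenin 2 were listed, and both fell: the glutamate transporter SLC1A2 (-0.88 ± 0.10, SE) and the dicarboxylate transporter SLC13A3 (-0.56 ± 0.10) in the authors' deposited table. In the noncanonical branch the authors' deposited table gave 0.51 ± 0.14 (SE) for the cadherin CELSR2 and -0.49 ± 0.12 for INVS, which acts on Dishevelled.

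**Figure D4:**
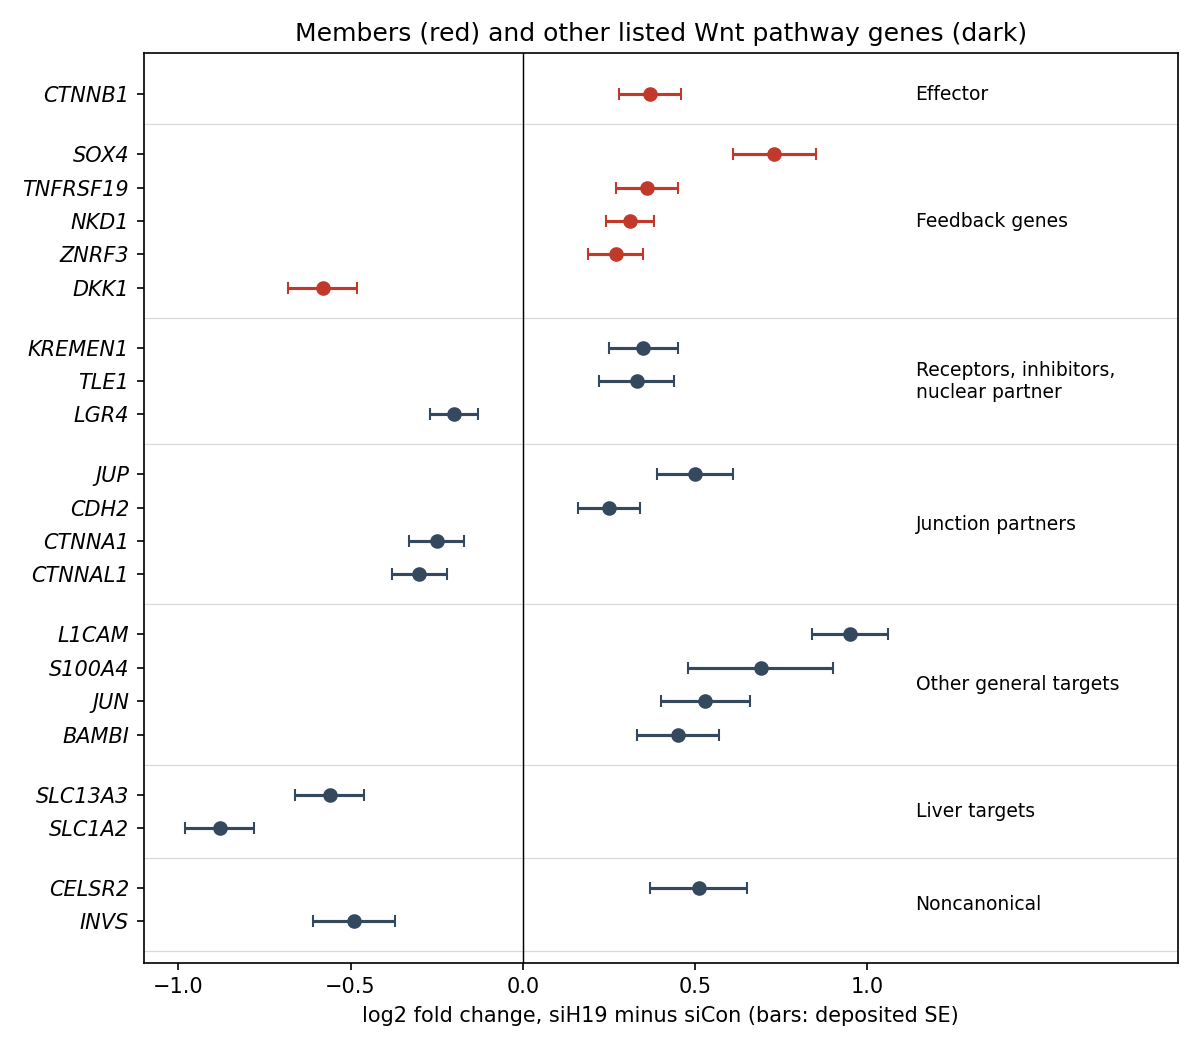
Log2 fold change, siH19 minus siCon (x axis, bars show the deposited SE), of the members (red) and of 15 other listed pathway genes (dark), grouped by role. General targets lie to the right of 0, both liver targets to the left, and junction partners on both sides; 2 general targets with smaller rises are not drawn.

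Of 18 further SOX symbols 1 was listed, and of 28 further symbols of the tumour necrosis factor receptor family also 1. SOX5 was the SOX gene and fell by 0.58 ± 0.11 (SE) in the authors' deposited table, opposite to SOX4. NGFR, a neurotrophin receptor, was the receptor and rose by 1.32 ± 0.12 (SE) in the authors' deposited table, more than TNFRSF19. By distance over the 2 deposited group levels, the listed gene nearest to ZNRF3 was SMAD5 (distance 0.00) and that nearest to TNFRSF19 was TPM1 (0.01). For SOX4 it was NDC1 (0.04), for DKK1 PDZD8 (0.06), for NKD1 FILIP1L (0.09) and for CTNNB1 LINC00657 (0.21). With 2 values per gene this measures level and fold change alone.

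The cells expressed hepatocyte markers, and these were lower in siH19. Of 10 such markers 9, led by SERPINA1 and ALB in mean count, were listed, and all 9 were lower in siH19 (median log2 fold change -0.51). Of all listed genes 55.3% were lower, with a median log2 fold change of -0.27. The summed level of the 9 markers was 170174 normalized counts in siH19 and 248629 in siCon. Of the markers of other cell types, 1 of 6 for bile duct was listed and higher (SPP1, 0.53 ± 0.09, SE, in the authors' deposited table). For stellate cells and fibroblasts 1 of 7 was listed (ACTA2), for endothelium 1 of 6 (LYVE1) and for blood cells 2 of 7 (CD68 and LYZ), and all of these were lower. Summed levels of these 4 lists were 8841, 484, 53 and 16759 normalized counts in siH19, against 6123, 861, 105 and 26484 in siCon. Both groups are the same line, so these sums describe RNA of HepG2 cells and not shares of cell types. The part of these markers in the members' changes was not tested.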

How the data were processed

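Ribosome-depleted total RNA of 3 siH19 and 3 siCon libraries was made into stranded libraries and read in 76 cycles from both ends, per the labels' protocols. The submitters' processing notes name STAR 2.5.0a, Cufflinks 2.2.1, DESeq2 1.0.0 and hg19. The gene annotation, the normalization and what each tool did are not stated. The authors deposited 1 table of called genes with log2 group values and a log2 fold change with its SE. The deposited mean count is the authors' normalized signal over both groups, and the q value deposited by the authors is an adjusted p-value, at most 0.0498. The fold change equalled siH19 minus siCon of the group values within 0.01 in all 1998 rows. No column came from other samples.

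No model could be fitted without values per library, so no p-value was added. Differences between fold changes used the root of the summed squared SEs and a normal 95% interval. A run on simulated fold changes with independent errors and known SEs checked the code alone. It cannot show how the interval holds for SEs estimated from 3 libraries or for genes picked as called. Lengths, overlaps and 3' UTRs came from GENCODE release 29 (GRCh38), which is not the authors' build, and promoters from RefSeq. Python 3.11.15, pandas 2.3.3 and NumPy 2.4.6 were used. The members and lists were chosen with earlier results of these data known. Named genes were the members, every listed gene of the pathway and family lists (at most the 6 largest changes in a list), cell type markers, and the listed gene nearest to each member.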

Additional observations from a re-analysis of the deposited data

How the results depend on the processing

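The direction counts of the members, 5 higher and 1 lower, were unchanged at an adjusted p under 0.01 and at a mean count of at least 100. Among changes of at least 1.5-fold, 1 member was higher (SOX4) and 0 were lower. Without genes that overlap another annotated gene, 1 was higher (TNFRSF19) and 0 were lower, since 5 members are then left out. For the other pathway genes, 11 higher and 6 lower, 6 were higher and 5 lower at an adjusted p under 0.01, and at 1.5-fold or more 2 were higher and 1 lower. The median difference of the 5 feedback genes from CTNNB1 was -0.06 on the log2 scale, and between -0.08 and -0.035 when each feedback gene was left out. As a mean weighted by the inverse squared SE the difference was -0.15, a shift just over the SE of CTNNB1 (0.09). Such a mean, unlike the median, takes in the size of the difference of DKK1. No paired analysis was possible because the authors' deposited table holds 1 combined value per group, which also kept libraries from being left out. The table rounds fold changes and SEs to 2 decimals, and unlisted genes give no background of unchanged genes.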
